A study of Mus musculus with 4 samples.

Results

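Trimethylated lysine 4 of histone H3 (H3K4me3) was compared between mouse peritoneal macrophages treated with lipopolysaccharide (LPS) and with phosphate-buffered saline (PBS), as profiled by chromatin immunoprecipitation sequencing (ChIP-seq). The comparison used 2 of the 4 libraries of the series, 1 for each treatment; the libraries of another histone mark were not used here. It took every deposited peak on chromosomes 1 to 19 and X, which gave 28478 peaks in the LPS list and 31368 in the PBS list, and left out 27 and 30 peaks on Y. In both groups the cells came from C57BL/6 mice aged 8 weeks. They had been drawn into the peritoneum with thioglycollate broth, had adhered to dishes and were then kept for 24 h with LPS or PBS. The labels name no transgene or deletion. They do not say how many mice gave cells or whether these were pooled. With 1 library per treatment, every difference below is between 2 libraries and has no replicate check. The 95% intervals given for shares and single ratios reflect counting error alone, and those of medians reflect the spread among regions.

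H3K4me3 is laid down around transcription start sites by methyltransferases of the COMPASS family, largely where CpG-rich DNA is unmethylated, and it extends from the start into the first part of active genes. Wide H3K4me3 domains are known from genes that specify a cell type, and narrower, weaker peaks occur at many enhancers. LPS, a part of the outer membrane of Gram-negative bacteria, is sensed by macrophages through the receptor TLR4. Its downstream pathways activate NF-kB and, through secreted interferon, the factor ISGF3, which binds the interferon-stimulated response element (ISRE).

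The promoters with more H3K4me3 in the LPS library are shown first by sequence, since a known element recurred in them. Of 10876 annotated starts with a peak of both lists within 1 kb and a printed reference promoter, 28 had at least 2-fold more tags per filtered tag in LPS and 100 or more tags summed over the libraries. The ISRE core (GAAA, any 2 bases, GAAA), searched on both strands in the 300 bases from 250 before to 50 after the start, was present in 7 of these 28 promoters (25%, 10.7% to 44.9%). It was present in 2.93% (2.62% to 3.27%) of the 10876, in 3.45% (1.85% to 5.82%) of 377 promoters that were 2-fold higher in PBS, and in 3.38% of all 21045 annotated starts. The 28 promoters lie in 27 separate sets of peaks. The 7 lie in 6 of these sets, because Ifit1 and Ifit1bl2 share theirs, so the interval counts 1 place as 2. The 5 sets with the highest ratio are printed below, 5′ to 3′ on the strand of the gene, with each match to the core in capitals on either strand (RefSeq, GRCm38.p6). They belong to Phf11a (chr14:59297473-59297772, minus strand), Tex12 (chr9:50561219-50561518, minus), Trim30d (chr7:104507800-104508099, minus), Ifit1 (chr19:34640639-34640938, plus) and Gm12250 (chr11:58183593-58183892, plus).
Phf11a: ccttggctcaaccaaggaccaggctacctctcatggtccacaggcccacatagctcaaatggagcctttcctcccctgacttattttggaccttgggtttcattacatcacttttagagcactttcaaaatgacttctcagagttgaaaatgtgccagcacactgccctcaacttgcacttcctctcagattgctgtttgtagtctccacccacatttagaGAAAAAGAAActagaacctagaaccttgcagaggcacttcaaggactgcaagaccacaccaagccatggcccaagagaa
Tex12: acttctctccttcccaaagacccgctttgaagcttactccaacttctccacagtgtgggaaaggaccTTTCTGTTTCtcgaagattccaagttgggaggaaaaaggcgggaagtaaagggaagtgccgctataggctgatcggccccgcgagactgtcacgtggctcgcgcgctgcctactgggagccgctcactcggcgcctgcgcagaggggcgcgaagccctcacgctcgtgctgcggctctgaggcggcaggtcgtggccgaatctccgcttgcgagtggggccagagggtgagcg
Trim30d: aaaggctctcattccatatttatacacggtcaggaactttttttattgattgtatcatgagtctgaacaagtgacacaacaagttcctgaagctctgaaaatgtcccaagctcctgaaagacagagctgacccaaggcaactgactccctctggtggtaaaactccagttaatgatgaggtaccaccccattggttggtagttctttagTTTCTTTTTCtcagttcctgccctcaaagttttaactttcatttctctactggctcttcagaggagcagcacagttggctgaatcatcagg
Ifit1: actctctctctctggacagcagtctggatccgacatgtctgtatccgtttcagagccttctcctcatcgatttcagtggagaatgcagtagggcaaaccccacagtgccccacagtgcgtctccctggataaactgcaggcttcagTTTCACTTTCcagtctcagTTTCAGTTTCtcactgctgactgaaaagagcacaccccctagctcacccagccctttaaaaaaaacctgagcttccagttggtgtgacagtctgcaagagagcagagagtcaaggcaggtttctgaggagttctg
Gm12250: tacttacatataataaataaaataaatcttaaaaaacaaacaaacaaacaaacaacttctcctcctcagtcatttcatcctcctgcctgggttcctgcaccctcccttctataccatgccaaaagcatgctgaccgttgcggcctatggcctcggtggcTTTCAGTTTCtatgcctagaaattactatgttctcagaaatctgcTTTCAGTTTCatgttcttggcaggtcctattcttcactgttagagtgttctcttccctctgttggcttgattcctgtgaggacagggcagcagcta
In Phf11a, which encodes a PHD finger protein, the match began 29 bases before the start, and in Trim30d, which encodes a tripartite motif protein, 41 bases before it. Ifit1, an antiviral RNA-binding protein, held matches beginning 104 and 85 bases before the start. The Phf11a promoter peaks held 87 tags in LPS and 28 in PBS, and those of Ifit1 207 and 106. A match is a run of letters and does not show that the element was bound. The NF-kB site (GGGAA, any base, TTCC) was in 0 of the 28 promoters (up to 12.3%) and the AP-1 site TGANTCA in 2 of 28 (7.14%, 0.877% to 23.5%). These elements were in 0.395% and 4.26% of all 10876 promoters. The 28 were also poor in CpG, with a median observed over expected CpG of 0.321 against 0.776 for all 10876 and 0.718 for the 377 higher in PBS. The share with an ISRE core among promoters equally poor in CpG was not counted.

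For contrast, the promoters of Nkiras2 (chr11:100622705-100623004, plus strand) and Tpst2 (chr5:112276495-112276794, plus) are among those of the shared regions with the lowest LPS ratio, and are printed in the same way with CpG in capitals.
Nkiras2: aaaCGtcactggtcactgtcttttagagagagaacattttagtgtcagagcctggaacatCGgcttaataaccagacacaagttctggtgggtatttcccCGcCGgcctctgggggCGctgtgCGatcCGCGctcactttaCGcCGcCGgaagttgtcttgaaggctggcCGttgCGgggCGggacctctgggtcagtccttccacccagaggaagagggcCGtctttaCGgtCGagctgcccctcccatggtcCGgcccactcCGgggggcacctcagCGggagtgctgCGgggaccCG
Tpst2: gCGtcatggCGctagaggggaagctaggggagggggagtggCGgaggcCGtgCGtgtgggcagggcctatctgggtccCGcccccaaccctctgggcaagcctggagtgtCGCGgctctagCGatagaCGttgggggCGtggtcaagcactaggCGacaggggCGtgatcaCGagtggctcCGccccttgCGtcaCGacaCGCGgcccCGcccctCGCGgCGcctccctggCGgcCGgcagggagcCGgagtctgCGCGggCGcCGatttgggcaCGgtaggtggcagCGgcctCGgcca
They held 22 and 33 CpG, with a CpG ratio of 0.772 and 0.858, and neither held an ISRE core.

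The PBS library was the deeper one and the one with more of its tags inside peaks. After filtering it held 29681491 tags against 26748289 in LPS, of which 17.8% and 14.0% were inside the listed peaks, which covered 41.2 Mb and 35.4 Mb. The tags are counted within each library's own peaks, so the tag count of a region grows with the length called there. Ratios were scaled by filtered tags; scaling by the tags inside peaks would raise every log2 ratio by 0.34, so that a ratio between -0.34 and 0 would turn positive. Because that shift reaches the size of the typical difference, ratios are best read against the median region. Widths stand beside them and need no scaling, but a called width also depends on the depth of the library and on the caller. The part of depth and of the share of tags inside peaks in the width differences was not tested. Of 10 macrophage marker promoters, 8 had a peak in both lists, among them Csf1r, the receptor of macrophage colony stimulating factor (515 and 621 tags in LPS and PBS). Spi1 was listed in LPS only and Msr1 in neither list. The defining T cell genes Cd3e, Cd3d and Cd8a and the B cell genes Cd79a and Ms4a1 had no promoter peak, while 2 of 5 markers of each of these cell types did have one in both lists. Of 5 neutrophil markers, Csf3r had a peak in both lists and S100a8 and Camp in LPS only, with summed tags of 317 in LPS and 250 in PBS. Of 5 mesothelial and fibroblast markers, Wt1 and Col1a1 had a peak in both lists and Upk3b and Krt19 in PBS only, with summed tags of 347 and 654. The part of other cells in the differences below was not tested.

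Peaks were slightly narrower in the LPS library. The median width was 1006 bp (995 to 1016) in LPS and 1051 bp (1040 to 1061) in PBS. The middle of each list was close, with quartiles of 648 and 1578 bp in LPS and 656 and 1685 bp in PBS. The lists differed more at the upper end, where 48 LPS peaks and 95 PBS peaks were wider than 6 kb and 342 and 475 were 4 to 6 kb wide. The widest peaks reached 8483 and 8528 bp.

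Whether a peak had a counterpart in the other list depended strongly on its width. Of the LPS peaks, 5627 (19.8%) shared no base with a PBS peak, and of the PBS peaks 8799 (28.1%) shared none with an LPS peak. Unmatched peaks were narrow, with median widths of 567 bp (LPS list) and 614 bp (PBS list). Matched peaks had 1165 and 1312 bp. Under 0.5 kb, 62.8% of LPS peaks and 73.6% of PBS peaks were unmatched. From 2 to 4 kb only 1.87% and 2.47% were. The share was higher again above 6 kb, at 5 of 48 (10.4%, 3.47% to 22.7%) and 12 of 95 (12.6%, 6.70% to 21.0%). The caller's score showed the opposite course: its median reached 463 in LPS and 668 in PBS at 2 to 4 kb and was 136 and 176 above 6 kb.

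**Figure D1:**
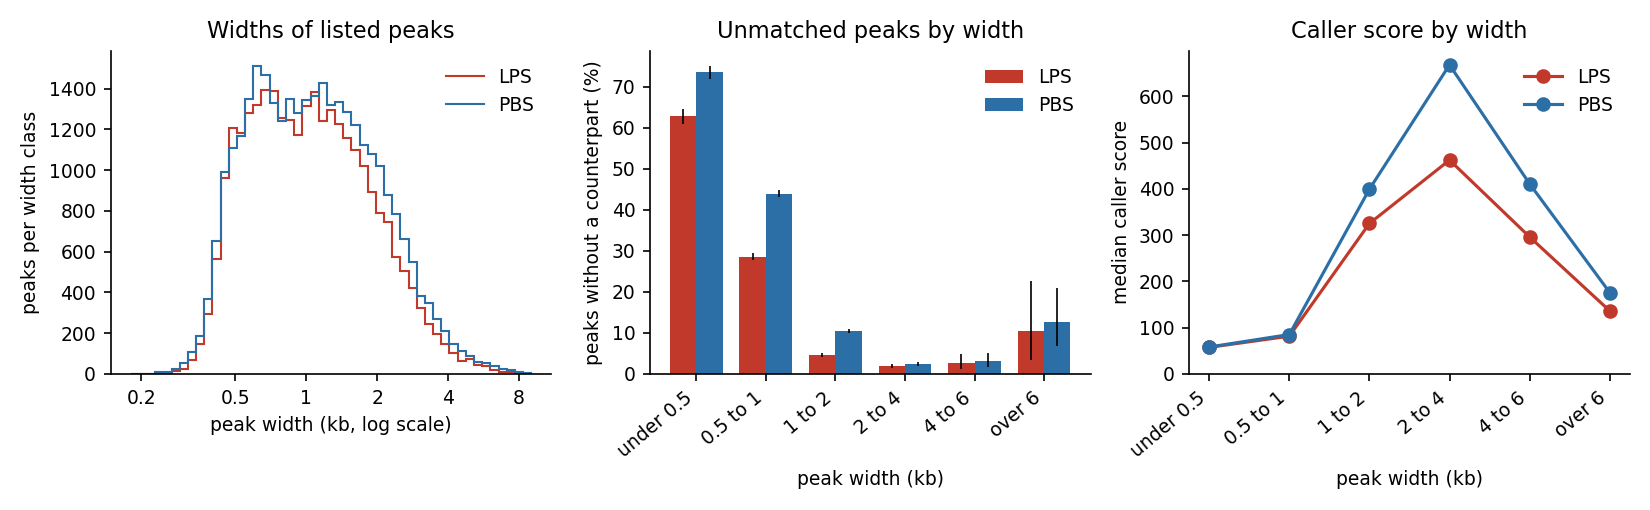
Left, number of peaks in each of a series of width classes (kb, log scale) in the LPS and PBS lists. Middle, percent of peaks in a width class with no base in common with a peak of the other list, with 95% binomial intervals; right, median caller score (minus 10 times log10 of p) by width. The unmatched share is lowest at 2 to 4 kb, where the score is highest.

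Unmatched peaks with many tags were wide, and the unmatched share was higher where the score was low. Among peaks with at least 500 tags, 5 of 22 LPS peaks with a score under 100 (22.7%) and 11 of 38 such PBS peaks (28.9%) were unmatched. With a score of 100 or more, 9 of 672 (1.34%) and 17 of 1927 (0.882%) were. The 4 unmatched LPS peaks with the most tags lay near Fcgr3, an Fc receptor (chr1:171069604-171077181, 1388 tags), and at the promoters of Ppp1r9b, which encodes spinophilin (1359 tags), Tnfaip2, a target gene of TNF signalling (1205 tags), and Fam20c, a Golgi kinase (985 tags). The Fcgr3 peak ended only 0.215 kb from a PBS peak of 1174 tags. The Ppp1r9b peak was the widest of the LPS list at 8.48 kb and had a score of 53.7, near the lowest score listed. In the PBS list, the 4 were at Ankrd13b/Git1 (1439 tags), at Zc3h12a, which encodes the ribonuclease Regnase-1 (1201 tags), at the endocytic receptor gene Lrp1 (1201 tags) and at Cd151/Cracr2b (1167 tags). All 8 were 5.85 to 8.48 kb wide. A place missing from a list fell short of the caller's threshold there and may still carry the mark. At Actb, a gene that every cell uses, a peak of 553 tags was listed in PBS and none in LPS. Actb has no annotated start, so this peak lies at a gene end that need not be the start.

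Places with a peak in both lists were narrower and held fewer tags in LPS by a small margin. Overlapping or touching peaks were merged into 36628 regions, of which 22203 had a peak of both lists and are called shared. Their median covered width was 1207 bp in LPS and 1337 bp in PBS, a median log2 ratio of -0.09 (-0.10 to -0.09), and 66.1% were narrower in LPS. The median log2 tag ratio was -0.31 (-0.31 to -0.30), from 113 tags in LPS against 160 in PBS. Scaled by the tags inside peaks, the median was 0.04, so the direction of the typical tag ratio turns with the scaling. Per covered kb, the ratio was -0.15. In every class of mean width from 0.5 kb up, the median log2 width ratio lay between -0.10 and -0.06. Under 0.5 kb it was 0, and 49.3% of regions were wider in LPS.

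Large tag differences were differences of width. Of 17883 shared regions with 100 or more tags summed over the libraries, 100 (0.559%) had at least 2-fold more tags in LPS and 570 (3.19%) in PBS. Counted from the median region, 268 (1.5%) were 2-fold above and 155 (0.867%) 2-fold below it, which turns the balance of the directions. All of the 100 were wider in LPS and 569 of the 570 wider in PBS. The median width of the 100 was 1745.5 bp in LPS and 758 bp in PBS, and that of the 570 was 795 and 1625.5 bp. Per covered kb only 1 of the 100 and 3 of the 570 still differed 2-fold in the same direction. Over all shared regions the log2 tag and log2 width ratios had a Pearson r of 0.79 and a Spearman rho of 0.74, a description over regions of 1 pair of libraries in which tags are counted inside the called width. Covered width itself was at least doubled in LPS in 150 regions (0.676%) and in PBS in 590 (2.66%). The 590 had a median log2 tag ratio of -1.10, but 0.13 per covered kb.

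**Figure D2:**
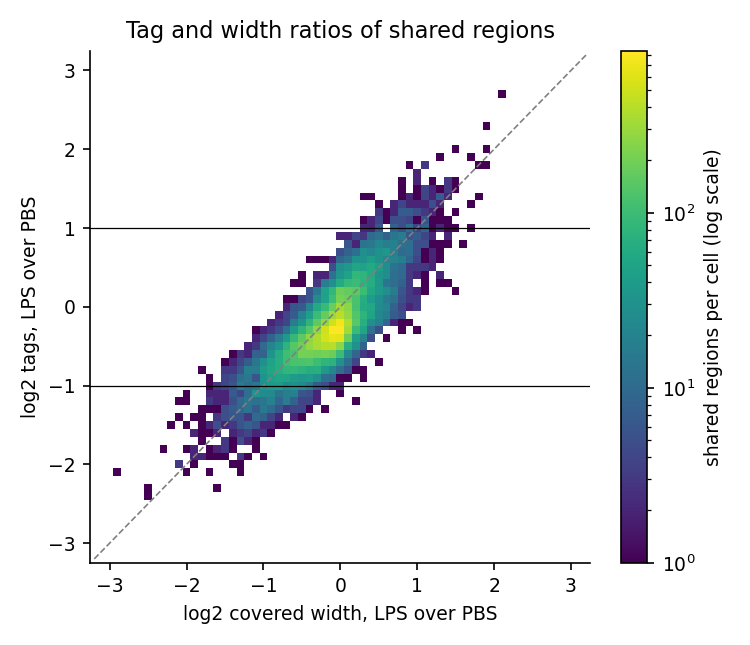
Each cell counts shared regions by log2 covered width (horizontal) and log2 tags per filtered tag (vertical), LPS over PBS, with a log colour scale. Solid lines mark a 2-fold tag ratio and the dashed line equal ratios; regions beyond the solid lines lie along the dashed line, at width ratios that also approach or pass 2-fold.

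Among the 6 regions highest in LPS were Rtp4, Il27 and Oasl1, genes of interferon and cytokine responses. A region 6311 bp from the start of Cdyl2, a chromodomain protein gene (chr8:116559285-116562412), held 199 LPS tags over 3.13 kb and 35 PBS tags over 0.705 kb, a log2 ratio of 2.66 (2.13 to 3.22). In the body of Rtp4, an interferon-induced gene (chr16:23610437-23612883), LPS had 187 tags and PBS 42 (2.30, 1.82 to 2.82). Both regions were more than 3 times as wide in LPS. At the promoter of Il27, which encodes the p28 chain of a macrophage cytokine (chr7:126591557-126596973), 531 tags over 5.42 kb stood against 145 over 1.86 kb (2.02, 1.76 to 2.30). At Oasl1, an antiviral gene of the oligoadenylate synthetase family (chr5:114922875-114925618), 239 tags stood against 72 in this region, while a second PBS peak met the same promoter window, so that the whole promoter had 198 tags in PBS. The other 2 of the highest 6 were a region 27103 bp from the start of Slc30a1, a zinc exporter gene (155 and 50 tags), and the promoter of Slfn1 of the Schlafen family (154 and 50 tags). Scores were low in LPS and PBS in the Oasl1 region (84.4 and 62.6) and in that of Slc30a1 (76.1 and 51.0).

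The regions lowest in LPS that are described here were mostly promoters, each with a short LPS peak and a long PBS peak. At Nkiras2, which encodes a Ras-like protein that binds inhibitors of NF-kB (chr11:100622908-100626740), 95 LPS tags covered 0.688 kb and 556 PBS tags 3.83 kb (-2.40, -2.73 to -2.08). At Tpst2, a protein-tyrosine sulfotransferase gene (chr5:112276670-112282882), 158 tags over 0.807 kb stood against 771 over 6.21 kb. In both, the tags per covered kb were at least as high in LPS, with log2 ratios of 0.08 and 0.81. The PBS peak at Nkiras2 had a score of 63.7, close to the lowest listed. Next came a region 46920 bp from the start of the glycolytic gene Hk2 (57 and 270 tags), the promoter shared by Gucd1 and the splicing gene Snrpd3 (50 and 228 tags) and that of Prorp, a mitochondrial RNase P subunit gene (36 and 164 tags).

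Ranked by base pairs, the largest gains of width in LPS included Nfkb2, Il27 and Ly6e. Nfkb2, the gene of the NF-kB precursor p100 (chr19:46303140-46310701), was covered over 7.56 kb (LPS) and 3.69 kb (PBS), with 865 and 645 tags. The wide LPS peak there had a score of only 78.7, against 569 for the PBS peak. Ly6e, an interferon-induced surface protein gene (chr15:74954083-74959528), was covered over 5.45 and 2.01 kb. At Nfkb2 and Ly6e the wider LPS peak was thinner, with log2 tags per covered kb of -0.46 and -0.43. The largest losses included Tpst2, Ehbp1l1/Fam89b (1.83 and 6.49 kb, chr19:5723647-5730134) and Ctdsp2, a phosphatase gene (2.90 and 6.88 kb, chr10:126978633-126985522).

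In base pairs, the width difference at promoters was larger on the gene side of the start, where the peaks also reached further. Edges were measured at 7835 promoters with an annotated strand and 1 peak in each list. The median peak reached 385 bp upstream and 1060 bp downstream of the start in LPS, and 477 and 1173 bp in PBS. Promoter by promoter, the median difference in reach, LPS minus PBS, was -22 bp upstream (-24 to -19) and -46 bp downstream (-50 to -43). The downstream edge moved more than the upstream edge in 4603 promoters (58.7%). In 169 promoters at least 2-fold wider in PBS, the median difference in reach was -806 bp downstream and -265 bp upstream. Their median reach in LPS and PBS was 721 and 1539 bp downstream, and 104 and 562 bp upstream. In the 16 at least 2-fold wider in LPS, the difference was 1272.5 bp downstream (526 to 1809) and 90 bp upstream (-8 to 271). Their median reach was 2011 and 700.5 bp downstream, and 401.5 and 338 bp upstream. Summits moved little: the median was 205 bp downstream of the start in LPS and 191 bp in PBS.

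Almost all shared places were called as the same number of peaks. Of the 22203 shared regions, 21254 had 1 peak in each list. LPS had more peaks in 584 (2.63%) and PBS in 313 (1.41%). When peaks up to 1 kb apart were merged into 1 region, the order turned, with 844 and 1099 regions. The extra peaks were separated by short gaps, with a median of 83 bp where LPS was split and 61 bp where PBS was split. Regions split in LPS were stretches of 2285.5 bp at the median with 189.5 LPS and 283 PBS tags, a median log2 ratio of -0.40, lower than the -0.30 of regions with 1 peak in both. Promoters made up 79.3% of them, against 59.6% of the regions with 1 peak in both. The 52 regions with the same number of peaks, more than 1, in each list had similar values, with a median log2 ratio of -0.39 (-0.45 to -0.32) and 80.8% at promoters.

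The number of peaks per promoter was nearly the same in both libraries. Of 21631 protein-coding genes, 7896 had no peak within 1 kb of the start in LPS, 12238 had 1, 1480 had 2 and 17 had 3. In PBS these numbers were 7528, 12543, 1538 and 22. Among promoters with a peak, 10.9% (10.4% to 11.4%) had 2 or more in LPS and 11.1% (10.5% to 11.6%) in PBS. Over all genes, 789 (3.65%) had more peaks in LPS and 1196 (5.53%) more in PBS. With only peaks of a score of 100 or more these were 400 and 1234. Among the 13499 with a peak in both lists the balance was nearly even, at 553 (4.1%) and 592 (4.39%).

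The extra peak arose differently in the 2 directions. Of the 553 promoters with more peaks in LPS, 491 (88.8%, 85.9% to 91.3%) held a PBS peak that LPS listed in pieces, and 50 (9.04%) held an LPS peak with no counterpart. Of the 592 with more in PBS, 188 (31.8%, 28.0% to 35.7%) held an LPS peak that PBS listed in pieces and 384 (64.9%, 60.9% to 68.7%) a PBS peak with no counterpart. Those 384 had a median log2 tag ratio of -0.80 and a median log2 width ratio of -0.85, and the unmatched PBS peak held a median of 67 tags. The 491 split promoters had ratios of -0.43 for tags and -0.17 for width.

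**Figure D3:**
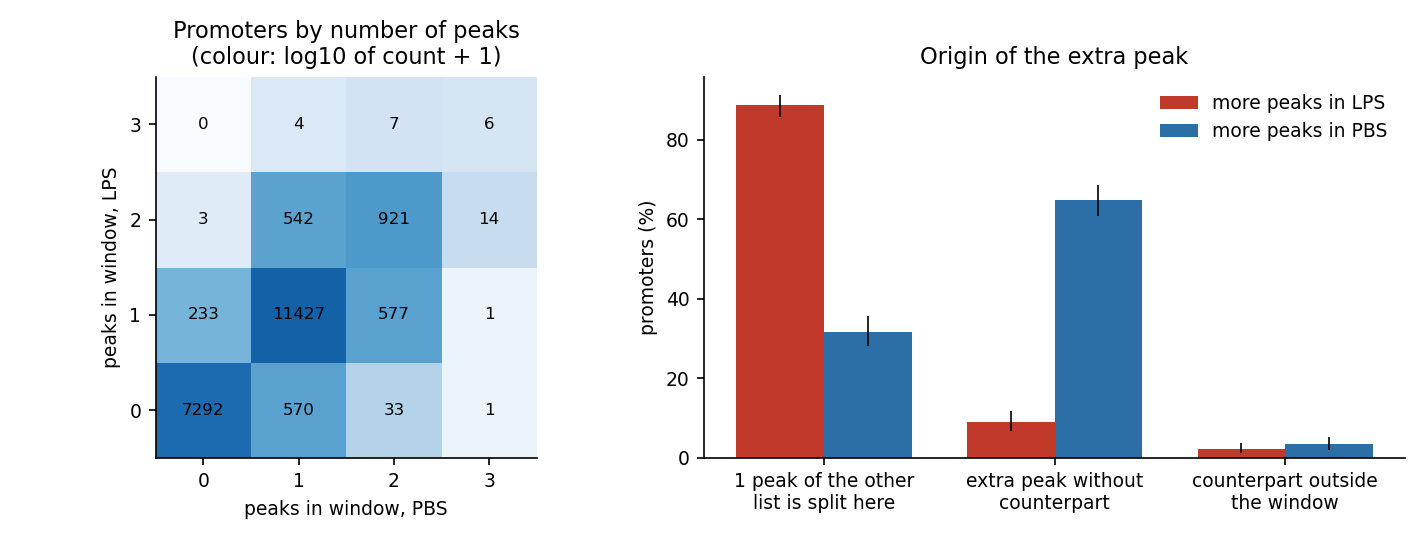
Left, number of protein-coding promoters by the number of peaks within 1 kb of the start in PBS (horizontal) and LPS (vertical); colour follows log10 of the count plus 1. Right, percent of promoters with more peaks in LPS (of 553) or PBS (of 592) by how the extra peak arose, with 95% binomial intervals; splits make up 88.8% in LPS and 31.8% in PBS.

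At promoters with 2 peaks in both lists, the start lay most often inside the downstream peak. There were 594 such sets with an annotated strand. The gap between the peaks had a median of 149 bp in LPS and 120.5 bp in PBS. The start lay in the gap in 32.8% and 27.1%, and inside the downstream peak in 57.1% and 62.8%. The downstream peak was the larger, with median tags of 140 (LPS) and 207 (PBS). The upstream peak had 94 and 140. The log2 tag ratios of the upstream peak (-0.40, -0.42 to -0.38) and of the downstream peak (-0.39, -0.42 to -0.37) had overlapping intervals.

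The promoters with the largest excess of peaks show both patterns. Sp5, a transcription factor gene of the Wnt pathway, had 3 LPS peaks of 114, 79 and 150 tags in the place of 1 PBS peak of 395 tags, and the covered widths were 3.88 and 4.37 kb. Tmem219, which encodes a membrane receptor, had LPS peaks of 79, 79 and 41 tags against 1 PBS peak of 276, and the promoter shared by Mastl, a mitotic kinase gene, and Yme1l1 had 85, 41 and 49 against 265. In these 3 the log2 tag ratios were -0.05, -0.32 and -0.45, all smaller than 2-fold. Sh3gl1, an endophilin gene, had LPS peaks of 193 and 145 tags with no PBS peak in the window, but a PBS peak of 171 tags lay 3.55 kb from the start. St6galnac5, a sialyltransferase gene, had LPS peaks of 26 and 33 tags and no PBS peak nearer than 68.8 kb.

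In PBS, Id2, which encodes an inhibitor of basic helix-loop-helix factors, had peaks of 276 and 629 tags over 7.53 kb with no LPS peak in the window. An LPS peak of 204 tags and 2.26 kb lay 1.95 kb from its start. The Rpl18/Sphk2 promoter had PBS peaks of 595 and 273 tags, with an LPS peak of 175 tags at 2.66 kb. Btbd19/Tctex1d4 and Gmfg, an actin regulator gene of blood cells, had 349 and 99 and 270 and 136 tags in PBS, with LPS peaks of 169 tags at 4.11 kb and 207 tags at 1.08 kb. So 4 of these 5 promoters had an LPS peak within 5 kb. Adamts6, a metalloprotease gene, had 3 PBS peaks of 42, 47 and 26 tags and no LPS peak nearer than 57.1 kb. Of all promoters listed in PBS only (604), 29.1% had an LPS peak within 5 kb, and of those listed in LPS only (236), 25.4% had a PBS peak there. Most were weak, with median tags of 46 and 36.

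By location, regions at promoters had the lower LPS ratios. Each shared region was placed at a promoter (13364), elsewhere in a gene (4763), outside genes within 10 kb of one (1275) or further away (2801). The median log2 tag ratio was -0.36 (-0.36 to -0.36) at promoters, -0.15 (-0.16 to -0.13) in gene bodies, -0.16 (-0.20 to -0.13) near genes and -0.14 (-0.16 to -0.12) further away. The median log2 width ratio was -0.10 at promoters and -0.06 to -0.07 elsewhere. Regions away from promoters are weaker, with a median of 56 LPS and 69 PBS tags in gene bodies against 177 and 255 at promoters. Within the class of 100 to under 200 tags the difference was still there, with -0.42 at promoters, -0.17 in gene bodies and -0.22 further away. From 800 tags the values were -0.31 (-0.32 to -0.31), -0.28 (-0.32 to -0.24) and, over 42 regions, -0.21 (-0.30 to -0.04). There the interval of gene bodies overlapped that of promoters, and that of regions further away did not. At 400 to under 800 tags it was the other way. The values were -0.354 (-0.360 to -0.348) at promoters, -0.261 (-0.288 to -0.225) in gene bodies and -0.299 (-0.352 to -0.241) over 112 regions further away. A weak region enters only if both libraries passed the caller's threshold there, which limits the ratios that can appear at few tags. Under scaling by the tags inside peaks the promoter median stays just below 0 and those of the other classes turn positive.

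Regions higher in LPS were mostly away from promoters. Of the 100 regions at least 2-fold higher in LPS, 26 were at promoters, 47 in gene bodies, 9 near genes and 18 further away. This is 0.203% (0.133% to 0.298%) of the promoter regions that reached 100 tags and 1.60% (1.18% to 2.12%) of those in gene bodies. Near genes it is 1.19% (0.544% to 2.24%) and further away 1.29% (0.765% to 2.03%). Counted from the median region the shares were 0.532%, 4.08%, 3.43% and 3.86%, so the order was the same. Of the 570 higher in PBS, 352 were at promoters, which is 2.75% (2.48% to 3.05%) of promoter regions. The share was 4.36% (3.65% to 5.16%) in gene bodies and 5.01% (3.92% to 6.28%) further away. Near genes it was 2.64% (1.62% to 4.04%), close to that of promoters. Promoters held 56.4% (52.6% to 60.2%) of the 670 regions that differed 2-fold in either direction, and 71.5% of all regions that reached 100 tags. With only peaks of a score of 100 or more, the shares were 75.8% (71.4% to 79.7%) and 78.8%. Of the unmatched peaks, 6.04% (5.43% to 6.70%) of the 5627 in LPS and 11.9% (11.2% to 12.6%) of the 8799 in PBS were at promoters, against 60.3% and 60.0% of matched peaks. Regions and peaks away from promoters held fewer tags, and the part of tag strength in these shares was not tested. The 100 regions higher in LPS had median tags of 105 (LPS) and 46 (PBS).

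**Figure D4:**
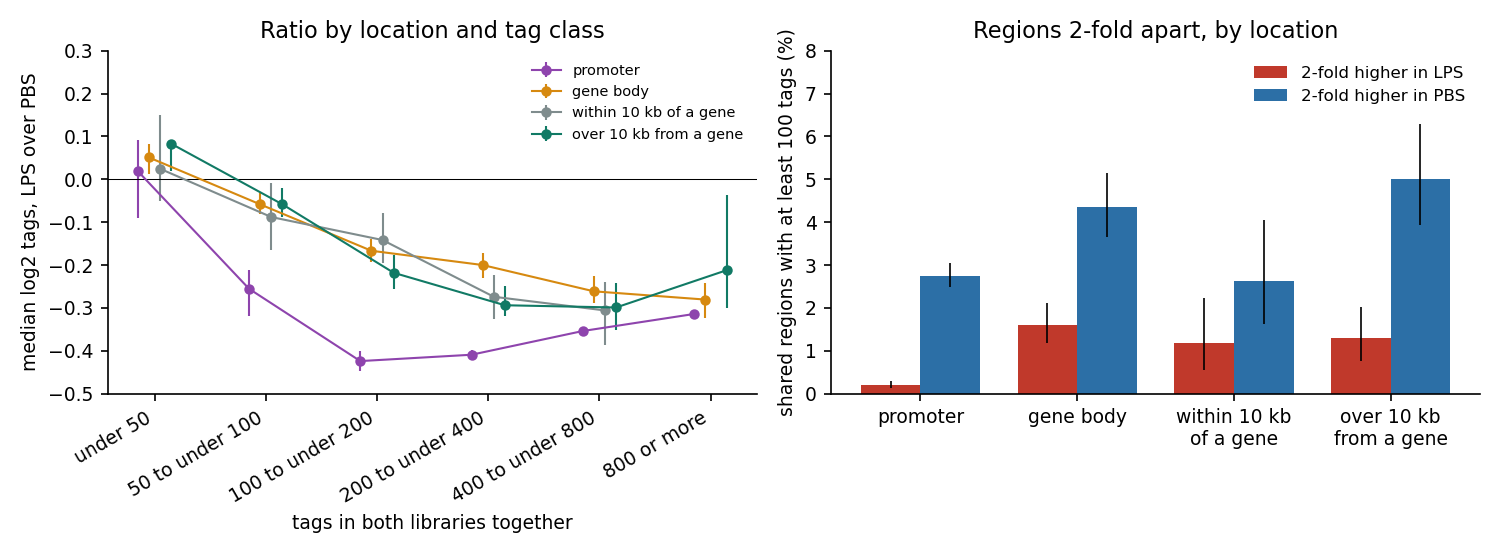
Left, median log2 tags (LPS over PBS) of shared regions by location and by tags summed over the libraries, with 95% intervals of the median; classes with too few regions are not drawn. Right, percent of shared regions of 100 or more tags that were 2-fold higher in LPS or PBS, with 95% binomial intervals; the LPS share is 0.203% at promoters and 1.60% in gene bodies.

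Along the genome the ratio was even on the autosomes and lower on X. The median log2 tag ratio of the 19 autosomes ran from -0.34 (chromosome 13) to -0.27 (chromosome 17), and the 506 shared regions of X had -0.46 (-0.51 to -0.43). X was 0.16 below the autosomal median of -0.30, and 361 of its 506 regions (71.3%, 67.2% to 75.2%) lay below that median. Promoters alone gave -0.51 on X and -0.36 on the autosomes, and other regions -0.28 and -0.15. The covered width showed it too, with -0.17 on X and -0.09 on the autosomes, whose range was -0.12 to -0.07. Of the X regions that reached 100 tags, 33 of 405 (8.15%, 5.68% to 11.3%) were 2-fold higher in PBS and 0 in LPS, against 3.07% and 0.572% on the autosomes.

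X regions were weaker, at a median of 72.5 LPS and 119 PBS tags against 115 and 162, and the gap depended on strength. With 100 to under 200 tags the ratio was -0.58 (-0.65 to -0.50) on X and -0.26 on the autosomes. With 400 to under 800 tags it was -0.43 (-0.47 to -0.38) and -0.35. At 800 or more, only 10 X regions remained and the values were -0.32 and -0.31. All of the 9 windows of 20 Mb along X had a median below that of the autosomes, from -0.56 to -0.37. X also had few unmatched LPS peaks, 9.93% (7.63% to 12.6%) of 584 against 16.9% to 23.9% on single autosomes. The labels give no sex, and the part of depth or strength in the X difference was not tested.

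**Figure D5:**
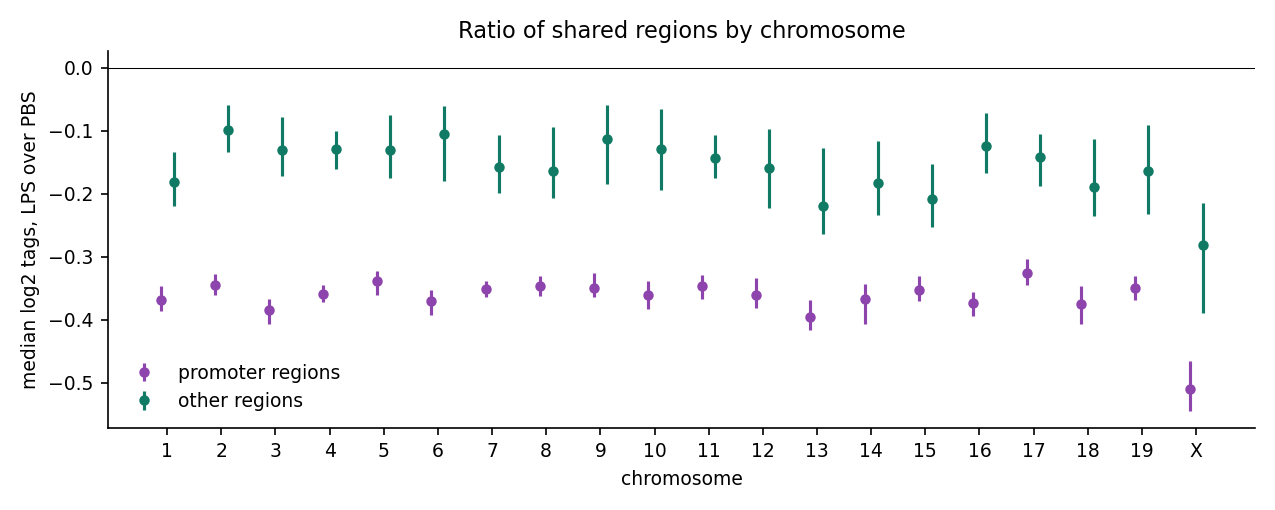
Median log2 tags (LPS over PBS) of shared regions on each chromosome, at promoters and elsewhere, with 95% intervals of the median. X lies at -0.51 at promoters and -0.28 elsewhere, below every autosome in both classes.

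On the scale of 1 Mb the ratio was nearly uniform, with a few exceptions. Of 859 bins with at least 10 shared regions, 97.0% had a median within 0.25 of the median bin (-0.30), and 11 had a median above 0. The lowest bins were clusters of KRAB zinc finger genes, which encode a large family of DNA-binding repressors. The bin at 175 to 176 Mb of chromosome 2 had -0.88 over 15 regions (Zfp965, Zfp966, Zfp968 and predicted neighbours), with 1078 LPS and 2095 PBS tags. The bin at 62 to 63 Mb of chromosome 13 (Zfp808, Zfp934, Zfp935) had -0.82 over 15 regions, of which 14 lay below the median of all shared regions. The next bin of chromosome 2, at 176 to 177 Mb (Zfp967, Zfp973), had -0.74 over 11 regions. These clusters include near-identical copies, so the assignment of tags among them is uncertain.

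The highest bins were on chromosomes 2 and 17. The bin at 158 to 159 Mb of chromosome 2 had 0.11 over 15 regions, of which 12 lay above the median of all. Its genes include Actr5, Dhx35 and Fam83d as well as Lbp, which encodes the LPS-binding protein, Bpi, its bactericidal relative, and the transglutaminase gene Tgm2. The bin at 170 to 171 Mb of chromosome 2 (Zfp217, Bcas1, Cyp24a1) had 0.08 over 10 regions, and that at 84 to 85 Mb of chromosome 17, around the mRNA-decay gene Zfp36l2 and Thada, 0.06 over 16. Scaled by the tags inside peaks, these would be higher still and the zinc finger bins would remain negative. Neighbouring regions were only weakly alike: the Pearson r of the log2 tag ratios was 0.31 for 807 pairs under 1 kb apart, 0.13 for 1032 pairs at 1 to 5 kb and 0.09 or less beyond, over regions that share the same libraries.

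The median ratio differed slightly with the GC content of the promoter and showed no such course with its CpG ratio. Differences of 2-fold were more frequent in the lowest class of both measures. Promoters were divided by GC content into 5 classes of similar size. The median log2 tag ratio rose from -0.42 (-0.43 to -0.41) at a median GC of 50.7% to -0.32 (-0.33 to -0.31) at 73.7%, and the width ratio from -0.16 to -0.08. The 2-fold shares of these classes count every promoter, without the minimum of summed tags used for the earlier sets of changed promoters. They are therefore not comparable with those sets, and the part of promoters with few tags in them was not tested. The share 2-fold higher in PBS was 6.80% in the class with the least GC and 1.06% in that with the most. The share 2-fold higher in LPS was 0.720% and 0.046%. Median tags also differed, 131 and 198 (LPS and PBS) in the class with the least GC and 302 and 422.5 in that with the most. By observed over expected CpG, the medians of the 5 classes were -0.35, -0.37, -0.38, -0.39 and -0.37 from the lowest to the highest class. The share 2-fold higher in PBS was 6.34% in the lowest of these classes and 2.39% in the highest. The share 2-fold higher in LPS was 1.06% and 0.046%. Median tags were 129.5 and 183 (LPS and PBS) in the lowest class and 253 and 371 in the highest. Whether GC content acts on the libraries or on the mark was not tested.

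The listed groups of promoters were set beside all promoters. Of all 13499 promoters with a peak in both lists, 27.6% were wider in LPS, and the median log2 ratios were -0.37 for tags and -0.12 for width. Of 23 interferon-stimulated genes, 18 had a peak in both lists, 11 of the 18 were wider in LPS, and the medians were 0.17 for tags and 0.15 for width. The antiviral enzyme gene Oas2 had 323 LPS and 128 PBS tags (1.49), over 3.19 and 1.35 kb, the nucleic acid sensor gene Zbp1 347 and 148 (1.38) and Rsad2, which encodes viperin, 217 and 135 (0.83). Others in the group had the opposite ratio, such as the RNA sensor gene Ddx58 with 130 and 265 tags (-0.88), and Ifit2, Ifit3, Usp18 and Gbp5 were listed in PBS only.

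Of 24 LPS response genes, 14 had a peak in both lists, 5 of these were wider in LPS, and the median tag ratio was -0.47. The cytokine gene Il6 had 79 LPS and 37 PBS tags (1.24, 0.66 to 1.85). The chemokine gene Ccl3 had 33 and 155 (-2.08, -2.67 to -1.53), and Nfkbia, the gene of the NF-kB inhibitor, 300 and 700 (-1.07, -1.27 to -0.88). Ccl4 has no annotated start, and the gene end used for it met the same peak as Ccl3. It enters the counts of the group with the values of Ccl3 and gives no ratio of its own. Lcn2, Ccl2 and Ccl5 were listed in LPS only, with 210, 25 and 80 tags, and Tnf and Il10 in PBS only, with 348 and 163. Genes of this group stood on both sides of the median promoter in these 24 h libraries.

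Promoters of macrophage transcription factor genes were wide in both libraries. Of 14, 12 had a peak in both lists, and the median widths were 3.12 kb (LPS) and 4.22 kb (PBS). The median log2 ratios were -0.53 for tags and -0.40 for width, but the share wider in LPS, 3 of 12 (25%), was near the 27.6% of all promoters. Zeb2 was covered over 2.42 and 4.46 kb with 422 and 737 tags, Bhlhe40 over 3.47 and 6.01 kb with 506 and 917, and Irf8 over 5.70 and 7.62 kb with 637 and 1014. Cebpa, Mitf and Gata6 were slightly wider in LPS, at 6.53 and 6.52 kb, 2.57 and 2.35 kb, and 3.95 and 3.84 kb.

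Housekeeping genes had a median tag ratio close to that of all promoters. Of 20, 18 had a peak in both lists, with medians of -0.37 for tags and -0.21 for width, and 4 of the 18 were wider in LPS. The 3 that differed 2-fold were Polr2a, the gene of the largest RNA polymerase II subunit (89 and 276 tags, 1.22 and 3.07 kb), B2m, the light chain gene of MHC class I (170 and 481 tags, 1.86 and 4.88 kb), and Chmp2a, an endosomal sorting gene (436 and 224 tags, 4.47 and 1.45 kb). Of 20 genes of neural and other developmental programs, 13 had a peak in both lists, 8 of the 13 were wider in LPS, and the medians were 0.05 for tags and 0.07 for width. Sox2, a stem cell factor gene, had 113 LPS tags over 2.23 kb and 29 PBS tags over 0.551 kb (2.11, 1.51 to 2.75). Hoxc5 had the opposite ratio with 54 and 168 tags (-1.49). Each group is small, and its counts are a description beside those of all promoters.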

How the data were processed

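Build mm10 and the tools Bowtie 0.12.8, CASAVA 1.4, DiffBind and MACS 1.4.2 are listed in the submitters' processing notes. Peak calling with MACS treated each library on its own, with no control library, at p 1e-05 and with 1 tag kept per position, per the file headers. Each deposited list gives, per peak, the count of tags, the width in bp, a score (minus 10 times log10 of the p-value) and a fold, the caller's ratio over its background; score and fold are the authors' values and served only to describe or filter peaks within a list. Filtered totals of 26748289 (LPS) and 29681491 (PBS) tags scaled the counts, and the weakest peaks held 17 tags in each list.

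Peaks were merged into regions where they overlapped or touched. Matching was checked with bedtools 2.31.1, and the calculations were tested on simulated data (Python 3.11.15). Genes and promoters came from RefSeq (GRCm38.p6, the same build as mm10): 17274 of 21631 protein-coding genes had an annotated start, and for the other 4357 the gene end with more tags was used. That end need not be the start of the gene. Genes that share a start share peaks. Of several starts, the one with the most tags over both libraries was taken.

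With 1 library per treatment no test was made. Shares and single ratios have exact 95% Clopper-Pearson intervals; PCR copies and neighbouring regions are not independent, so these are minimum errors. Named places were the 6 highest and 6 lowest regions with at least 200 tags, the 4 largest gains and losses of width, 5 promoters per direction by excess of peaks, 3 bins per direction, and 4 unmatched peaks per list; the members of the gene groups and the motifs that are named were chosen after their values were seen. The members, gene groups and rules were chosen with earlier results of these data known. Of 25 interferon-stimulated genes listed, 23 were found in the gene table. No promoter sequence of chromosome 18 was used. Some places and genes that these rules selected are not reported here.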

Additional observations from a re-analysis of the deposited data

How the results depend on the processing

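Scaling by tags inside peaks turned the median log2 tag ratio of shared regions from -0.31 to 0.037 and gave 305 regions 2-fold higher in LPS and 139 in PBS, with 36.7% of them at promoters. Centring on the median shared region gave 268 and 155, with 37.8% at promoters. Per covered kb the median was -0.15, the counts 1 and 12, the promoter share 84.6% and the X difference -0.10. With only peaks of a score of 100 or more, the median tag and width ratios were -0.34 and -0.10, 34 regions were higher in LPS, 208 and 123 regions had more peaks in LPS and PBS, 400 promoters had more peaks in LPS and 1234 in PBS (789 and 1196 as reported), 75.8% of changed regions were at promoters, the X difference was -0.12, and 915 LPS and 3871 PBS peaks were unmatched. Lists of equal length gave a median tag ratio of -0.32. Merging across gaps of up to 1 kb gave -0.31 for tags, -0.10 for width and 1099 regions with more peaks in PBS. With it, 51.9% of changed regions were at promoters, against 70.3% of all regions tested. A minimum of 50 tags gave 164 regions higher in LPS and 48.8% of changed regions at promoters, against 61.3% of all regions tested. A minimum of 200 gave 32 regions higher in LPS and 286 in PBS. With it, 70.1% of changed regions were at promoters, against 82.6% of all regions tested. The share of changed regions at promoters stayed below that of all regions tested under every setting except tags per covered kb, where it was above 71.5% over few regions; with a score of 100 or more its interval (71.4% to 79.7%) included the 78.8% of all regions. Restricted to regions of 400 to under 800 tags, a setting added after the data were seen, the X difference was -0.085. The other 30 of 63 values stayed within 1.5 times the count or within the interval as reported. No paired analysis was possible because each treatment had 1 library; depth and the caller's threshold limit what can be said of unlisted places.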
